A study of Rattus norvegicus with 2 samples.

Results

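The transcription factors that give hypothalamic nuclei their identity were examined in RNA from the hypothalamus of female Sprague Dawley rats. The 10 genes Nkx2-1, Sim1, Otp, Nr5a1, Fezf1, Isl1, Tbx3, Six3, Six6 and Lhx1 were taken by name, ignoring case, and each of the 10 was found, out of 22777 genes with mRNA transcripts. The study compared prepubertal rats, on postnatal day 25, with pubertal rats in their first estrus, on postnatal day 35, with puberty read from vaginal opening and the phase of the cycle from vaginal smears, to find RNAs that differ at the onset of puberty. The labels name no transgene or treatment in either group. Although 3 rats were taken at each age, a single column of values is given for each, so prepubertal and pubertal are 1 library each, no spread between rats can be given and no difference between the stages was tested. The stage therefore cannot be told apart from age, from the phase of the estrous cycle or from any other difference between the 2 libraries. The unit was FPKM, the number of sequenced fragments scaled to transcript length and library size.

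The hypothalamus is a set of small neuron groups, each of which carries its own combination of transcription factors. Nkx2-1 marks the tuberal and ventral hypothalamus, Sim1 and Otp the paraventricular and supraoptic nuclei, Nr5a1 and Fezf1 the ventromedial nucleus, and Isl1 and Tbx3 neurons of the arcuate nucleus. Six3, Six6 and Lhx1 are factors of the anterior hypothalamus, where the suprachiasmatic nucleus lies. These factors direct the formation of the nuclei in the embryo, and several stay on in the mature neurons, where they maintain the genes of peptides such as oxytocin, proopiomelanocortin and vasoactive intestinal peptide.

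The sequences upstream of the start sites are shown for 4 of the genes, because Isl1 and Sim1 are the factors whose difference between the libraries exceeded counting error, Otp is the factor with the largest decrease, and Nkx2-1 and Sim1 hold a motif of the kind that these factor families bind. Of the 10 genes, 9 had a promoter in the RefSeq table of build GRCr8, and Tbx3 had none. The 250 bases before the start are given 5′ to 3′ on the strand of the gene, at chr2:49823443-49823692 (minus strand) for Isl1, chr20:55410327-55410576 (plus) for Sim1, chr2:27842642-27842891 (plus) for Otp and chr6:79734868-79735117 (minus) for Nkx2-1. Capitals mark matches on either strand to the motifs searched.
Isl1: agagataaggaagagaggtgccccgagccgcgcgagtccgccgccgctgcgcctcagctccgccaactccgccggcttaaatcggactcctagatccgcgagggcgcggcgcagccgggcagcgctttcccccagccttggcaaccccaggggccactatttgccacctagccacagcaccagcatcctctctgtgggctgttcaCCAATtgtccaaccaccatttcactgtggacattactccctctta
Sim1: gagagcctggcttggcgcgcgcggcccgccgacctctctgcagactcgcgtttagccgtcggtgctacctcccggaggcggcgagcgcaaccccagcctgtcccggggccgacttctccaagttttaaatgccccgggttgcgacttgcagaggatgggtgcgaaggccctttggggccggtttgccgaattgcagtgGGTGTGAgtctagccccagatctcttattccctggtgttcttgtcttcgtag
Otp: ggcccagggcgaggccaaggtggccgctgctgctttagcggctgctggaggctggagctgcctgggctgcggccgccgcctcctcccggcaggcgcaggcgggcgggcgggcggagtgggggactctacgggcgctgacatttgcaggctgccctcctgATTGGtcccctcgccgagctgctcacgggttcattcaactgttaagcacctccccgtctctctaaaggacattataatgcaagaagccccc
Nkx2-1: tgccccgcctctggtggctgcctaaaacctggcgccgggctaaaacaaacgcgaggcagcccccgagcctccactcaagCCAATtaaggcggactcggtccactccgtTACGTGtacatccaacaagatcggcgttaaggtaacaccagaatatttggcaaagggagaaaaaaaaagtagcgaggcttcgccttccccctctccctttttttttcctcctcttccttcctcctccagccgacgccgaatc

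A set of 6 motif strings was searched on both strands of these upstream windows, with no string contained in another. TACGTG, a site of bHLH-PAS factors, the family of Sim1, was found upstream of Nkx2-1 and of none of the other 8 genes, and 2.95% of the 33469 windows in the table held it. GGTGTGA, a half-site of T-box factors, the family of Tbx3, was found upstream of Sim1 alone among the 9, against 3.22% of all windows. ATTGG, the CCAAT box read on the other strand, was found in 7 of the 9 windows, all but Sim1 and Lhx1, and in 34.0% of all windows. TAATTA, the core of many homeodomain sites, AAGGTCA, the site of orphan receptors such as Nr5a1, and TATAAA were in 0 of the 9, against 4.86%, 3.99% and 12.9% of all windows. A match describes these letters only, and binding was not measured in this study.

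Each of the 10 factors was measured above 0 in both libraries, and all were low. Their levels lay between 0.658 and 8.01 FPKM, at percentiles 37.0 to 60.6 of all genes. Isl1 had the highest level in both libraries, with 5.69 FPKM before puberty and 8.01 FPKM at puberty, and alone made up 30.2% and 35.5% of the summed FPKM of the 10 genes. Nr5a1 was the lowest before puberty, with 0.675 FPKM, and Six6 at puberty, with 0.658 FPKM. The sum of the 10 was 18.8 FPKM before puberty and 22.6 FPKM at puberty.

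At such levels the number of sequenced fragments sets the precision, and it could be recovered from the files. FPKM multiplied by transcript length, less a fitted offset of 261 nt before and 249 nt at puberty, fell mostly on whole multiples of a single step in each library. Among mRNAs with 2 to 6 fragments, 94.8% of 976 values in the prepubertal and 94.3% of 1107 values in the pubertal library lay within 0.1 of a whole number. For lncRNAs, which the fit did not use, the shares were 98.8% of 81 and 96.4% of 140. The steps imply 20900000 fragments before puberty and 16200000 at puberty (rounded) behind the FPKM scale, 1.29 times as many before puberty. For a transcript of 2000 nt, 1 fragment was worth 0.0276 FPKM before puberty and 0.0353 FPKM at puberty. The factors rested on 16 to 311 fragments per library, 844 and 776 in all. Intervals given below are exact 95% intervals from these fragment numbers, and they cover counting error only, not the spread between rats.

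**Figure D1:**
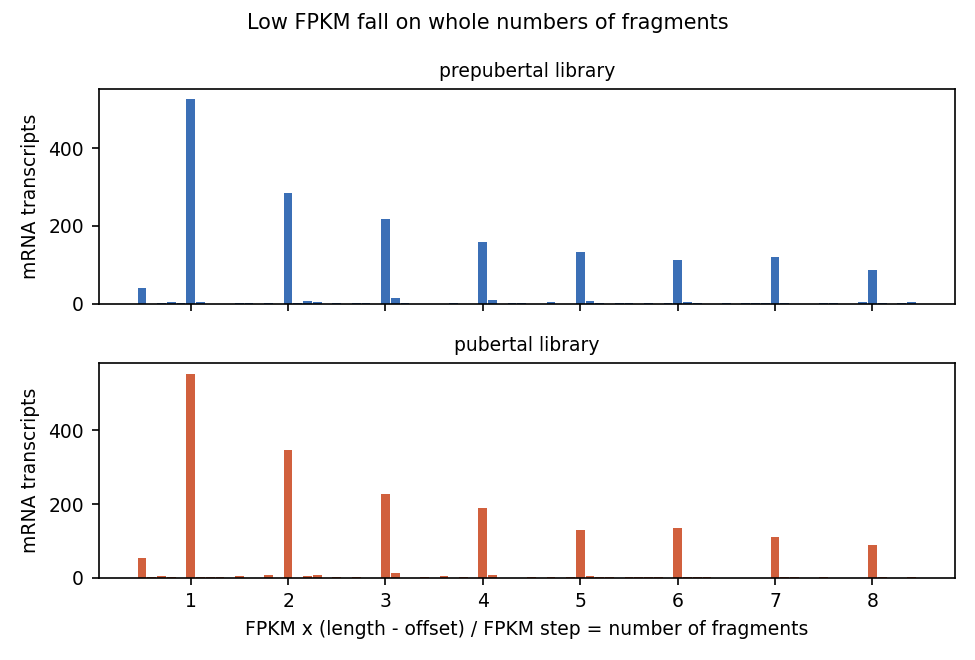
Number of mRNA transcripts (vertical axes) by FPKM × (length − offset) divided by the fitted step (horizontal axis, in fragments), for transcripts of 600 to 6000 nt from genes with 1 transcript. In both libraries most transcripts stand at whole numbers, with 527 and 554 at 1.0, and a smaller bar of 41 and 55 transcripts stands at 0.5.

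Between the libraries, 7 of the 10 factors were higher and 3 were lower at puberty. On the scale of FPKM + 1, which understates the difference of low genes, none differed by 2-fold or by 1.5-fold, and on the plain ratio of FPKM Otp, at 0.658, was the only one past 1.5-fold. The share of all genes past 1.5-fold on the plain ratio was not computed, and the shares below are on the scale of FPKM + 1. Isl1, Lhx1, Sim1, Six3, Nr5a1, Fezf1 and Tbx3 were higher, and Nkx2-1, Otp and Six6 were lower. Over all 22777 genes, 38.9% were higher and 40.4% lower, and the other 4725 were listed at 0 in both libraries. Among the 5923 genes with 0.5 to 10 FPKM in both libraries, the range of these factors, 44.0% were higher and 56.0% lower at puberty. The median of log2((pubertal FPKM + 1) / (prepubertal FPKM + 1)) over the 10 factors was 0.14, with a range of -0.31 to 0.43, against -0.04 over the genes of that range. On the same scale of FPKM + 1, 0.681% of all genes and 0.861% of the genes of that range differed by 2-fold or more in either direction. At 1.5-fold, 1.43% of all genes were higher and 1.86% lower, and of the genes of that range 2.19% were higher and 2.99% lower. In bulk tissue, fewer cells of a type and less RNA per cell cannot be told apart.

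When counting error was taken into account, the interval of the ratio lay above 1 for 2 of the 10 factors, Isl1 and Sim1, below 1 for none, and held 1 for the other 8. Of the 4581 genes with 1 transcript and 47 to 619 fragments over both libraries, as the factors had, 10.9% had an interval above 1 and 15.0% below 1. Over all 12949 genes with an interval, which include genes with many more fragments, the shares were 17.5% and 21.9%. A count of 2 among 10 is close to these shares and is not a result about the factors as a list.

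**Figure D2:**
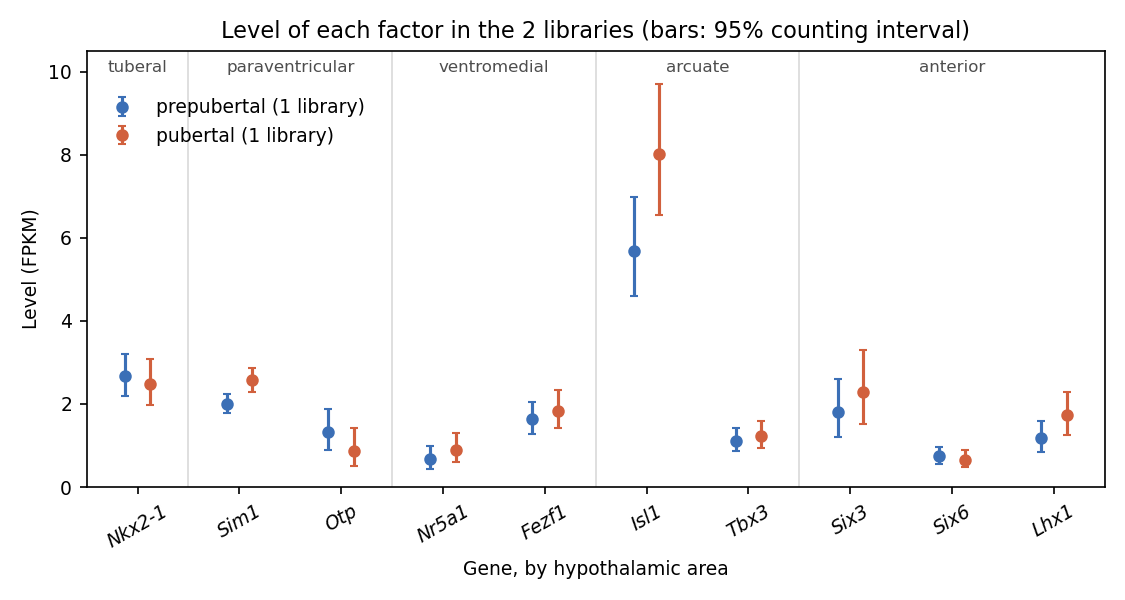
Level in FPKM (vertical axis) of each of the 10 factors (horizontal axis, by area) in the prepubertal library (blue) and the pubertal library (orange). Points are the 1 value per stage and bars the exact 95% counting interval. Isl1, at 5.69 and 8.01 FPKM, stood above the other 9, which lay below 3 FPKM.

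Nkx2-1 (ENSRNOG00000008644) encodes a homeodomain factor that specifies the ventral hypothalamus and that has been studied in the rat as a regulator of genes of the pubertal process. It was at 2.67 FPKM before puberty (113 fragments) and at 2.47 FPKM at puberty (82 fragments). The ratio of pubertal to prepubertal FPKM was 0.927, with an interval of 0.691 to 1.25. The counting intervals of the levels, 2.19 to 3.20 FPKM and 1.97 to 3.07 FPKM, overlapped over most of their width.

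Sim1 (ENSRNOG00000037600), a bHLH-PAS factor, and Otp (ENSRNOG00000010560), a homeodomain factor, are both needed for the neurons of the paraventricular and supraoptic nuclei that make oxytocin, vasopressin, corticotropin-releasing hormone and thyrotropin-releasing hormone. Sim1 was at 2.01 FPKM before puberty (interval 1.79 to 2.25) and 2.57 FPKM at puberty (2.29 to 2.87), and these intervals were apart. With 311 and 308 fragments on its transcript of 7672 nt it was the best measured of the 10, and its ratio was 1.28 (interval 1.09 to 1.5). Otp went the other way, from 1.32 FPKM (31 fragments) to 0.870 FPKM (16 fragments), a ratio of 0.658 with an interval of 0.336 to 1.24 that holds 1. The factors of this nucleus went in opposite directions, but Otp rested on the fewest fragments of any factor. Within a library their ratio does not depend on the scaling of the library. Sim1 over Otp was 1.52 before puberty (interval 1.05 to 2.28) and 2.95 at puberty (1.79 to 5.23), and these intervals overlap.

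Nr5a1 (ENSRNOG00000012682) encodes steroidogenic factor 1, an orphan nuclear receptor without which the ventromedial nucleus is disorganised, and Fezf1 (ENSRNOG00000007608) a zinc finger factor of the same nucleus. Nr5a1 was at 0.675 FPKM before puberty and 0.895 FPKM at puberty, on 27 and 28 fragments. The ratio was 1.32 (interval 0.755 to 2.34). Fezf1 was higher than Nr5a1 in both libraries, with 1.63 and 1.83 FPKM on 73 and 64 fragments, and its ratio was 1.12 (0.791 to 1.59). Both values were above those before puberty by less than the counting error. Fezf1 over Nr5a1 was 2.42 before puberty (interval 1.54 to 3.91) and 2.05 at puberty (1.29 to 3.31).

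Isl1 (ENSRNOG00000012556), a LIM homeodomain factor, switches on the proopiomelanocortin gene in developing arcuate neurons, and Tbx3 (ENSRNOG00000008706), a T-box factor, maintains the identity of arcuate neurons of the melanocortin system. Isl1 was at 5.69 FPKM (95 fragments, interval 4.61 to 6.97) before puberty and at 8.01 FPKM (105 fragments, interval 6.54 to 9.69) at puberty, so that the intervals of the levels overlapped slightly. Its ratio was 1.41 (interval 1.05 to 1.87), and its log2 difference on the FPKM + 1 scale was 0.43, the highest of the 10 on that scale only, since Lhx1 was higher with a pseudocount of 0.1 (0.52 against 0.48). Among all genes with 0.5 to 10 FPKM, 5% had a difference above that same value, 0.43. Tbx3 was at 1.11 FPKM (68 fragments) and 1.23 FPKM (59 fragments), a ratio of 1.11 (0.773 to 1.60). Of the arcuate pair, Isl1 was the higher in both libraries. Isl1 over Tbx3 was 5.12 before puberty (3.73 to 7.13) and 6.49 at puberty (4.67 to 9.07).

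Six3 (ENSRNOG00000024544) and Six6 (ENSRNOG00000006296) are closely related homeodomain factors of the anterior forebrain and eye, and Six6 is also needed for the neurons that make gonadotropin-releasing hormone. Six3 was at 1.80 FPKM before puberty and 2.29 FPKM at puberty, with 28 fragments in each library. Its ratio of 1.27 (interval 0.724 to 2.22) is therefore the ratio of the scales of the libraries. Six6 was at 0.746 and 0.658 FPKM on 58 and 40 fragments, a ratio of 0.882 (0.577 to 1.35). Although Six6 had more fragments, its transcript of 3999 nt is longer than that of Six3, 1004 nt, so per length Six3 was the higher. Six3 over Six6 was 2.42 before puberty (1.49 to 3.87) and 3.48 at puberty (2.06 to 5.78).

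Lhx1 (ENSRNOG00000002812), a LIM homeodomain factor that couples the neurons of the suprachiasmatic nucleus and maintains their peptides, was at 1.17 FPKM before puberty (40 fragments) and at 1.73 FPKM at puberty (46 fragments). Its ratio of 1.47 was the highest of the 10, but the interval, 0.943 to 2.31, holds 1.

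**Figure D3:**
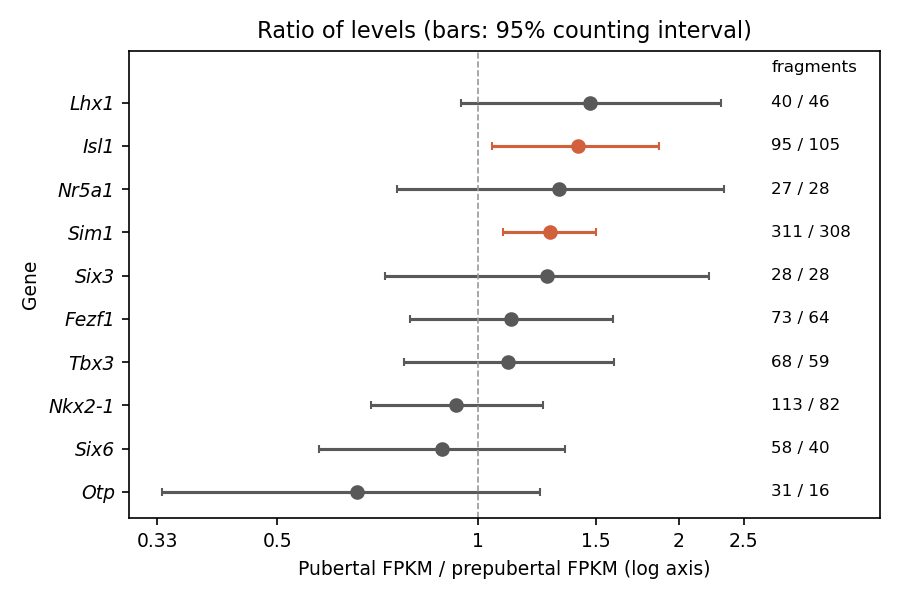
Pubertal over prepubertal FPKM (horizontal log axis) for each factor (vertical axis), with exact 95% counting intervals as bars and the fragments before and at puberty at the right. The intervals of Isl1 and Sim1 (orange) lie above 1, and the other 8 (grey) cross the dashed line at 1.

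The order of the factors was much alike in both libraries. Before puberty it ran from Isl1 through Nkx2-1, Sim1, Six3, Fezf1, Otp, Lhx1 and Tbx3 to Six6 and Nr5a1. At puberty Sim1 stood just above Nkx2-1, and Otp stood below Lhx1, Tbx3 and Nr5a1. The counting intervals of neighbours in this order overlapped except that of Isl1 with the next gene, in both libraries, so apart from Isl1 the rank of a single factor against its neighbour is not settled at this depth.

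A list of 20 genes of the same nuclei, chosen by area, was set beside the factors. Whether the factors regulate them was not tested. Of the 20 genes, 14 were higher and 5 lower at puberty and 1, Prok2, was listed at 0 in both libraries, with a median log2 difference of 0.17. The RNA came from hypothalamic tissue, not from single nuclei, so the nuclei named here are labels of the list. Of the 5 genes listed for the arcuate nucleus, 5 were higher. Among them Kiss1, which encodes the peptide that drives gonadotropin-releasing hormone neurons, was at 1.46 FPKM before and 3.78 FPKM at puberty. Pomc, the proopiomelanocortin gene that Isl1 serves, was at 45.8 FPKM before and 68.3 FPKM at puberty (ratio 1.49, interval 1.34 to 1.66). Of the 5 genes listed for the paraventricular nucleus 4 were higher, led by Oxt, the oxytocin gene, at 411 and 686 FPKM. Avp, the vasopressin gene, was at 254 and 240 FPKM. Sst, the somatostatin gene, was at 108 and 124 FPKM. Of the 5 genes listed for the ventromedial nucleus 2 were higher and 3 lower, including Cnr1, the cannabinoid receptor gene, at 34.3 and 30.3 FPKM. Of the 5 anterior genes 3 were higher, and Gnrh1, the gene of gonadotropin-releasing hormone, was at 8.46 FPKM before and 6.28 FPKM at puberty. Intervals could be computed for 9 of the 20 genes, of which 4 lay above 1 and 1 below 1. Oxt, Avp, Sst and Gnrh1, with transcripts shorter than 600 nt, and Kiss1, with 3 transcripts, have none, so the counting error of their differences is not known.

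A wider list of 44 other transcription factors of hypothalamic areas showed no common direction. Of these, 23 were higher and 19 lower at puberty, Neurog3 and Dbx1 were listed at 0 in both libraries, and the median log2 difference was 0.01. The intervals of 33 could be computed, of which 2 lay above 1 and 6 below 1. By area, 7 of 8 mammillary factors were higher, with a median of 0.18, and 2 of 8 factors of the ventral midline and preoptic area, with a median of -0.19. Over all genes 38.9% were higher. The mammillary factor Foxb1 was lower, at 1.92 and 1.19 FPKM (ratio 0.619, interval 0.374 to 0.992). Of the higher mammillary factors, Lhx5 and Lmx1a had intervals above 1, and those of Lmx1b, Barhl1, Irx5 and Foxa1 held 1. Of the 16 arcuate and dorsomedial factors, 8 were higher and 6 lower. Lhx5, the nearest relative of Lhx1 and a factor of the mammillary area, had the largest log2 difference upwards, with 1.46 FPKM (50 fragments) before and 3.02 FPKM (80 fragments) at puberty, a ratio of 2.06 (interval 1.42 to 2.98). Next came the mammillary factor Lmx1b, at 0.717 and 1.31 FPKM on 9 and 13 fragments (ratio 1.83, interval 0.722 to 4.84). Lhx8, a LIM homeodomain factor of basal forebrain cholinergic neurons, was at 2.54 FPKM before and 1.11 FPKM at puberty (79 and 27 fragments, ratio 0.436, interval 0.271 to 0.684). Lhx9, a factor of orexin neurons and also of the thalamus, was at 4.19 and 2.59 FPKM. Dlx6 was at 6.17 and 0.450 FPKM, but 4.72 FPKM of the former came from a transcript model of 231 nt, shorter than the fitted offset. The factors with the highest levels, Rora, Sox2 and Arnt2, the partner of Sim1, were at 38.8, 37.4 and 25.6 FPKM before and 34.3, 31.7 and 23.7 FPKM at puberty, and their intervals all lay below 1.

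Factors of the neighbouring telencephalon and thalamus were mostly lower at puberty. Of 13 such genes 12 were found, of which 10 were lower and 2 higher, with a median log2 difference of -0.41, and 7 of the 11 intervals that could be computed lay below 1 and 0 above 1. Neurod6, a factor of cortical excitatory neurons, was at 5.08 FPKM before and 2.36 FPKM at puberty (ratio 0.464, interval 0.344 to 0.621). Gbx2, which patterns the thalamus, was at 4.29 and 2.24 FPKM (0.523, 0.354 to 0.759), and Tcf7l2, a factor of thalamic neurons, at 19.9 and 12.2 FPKM (0.615, 0.554 to 0.682). Lef1 and Cux2 were lower as well, at 5.65 and 3.79 FPKM and at 4.68 and 3.47 FPKM. That these factors lie mostly below and the 10 hypothalamic factors mostly above equality has no replicate check.

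**Figure D4:**
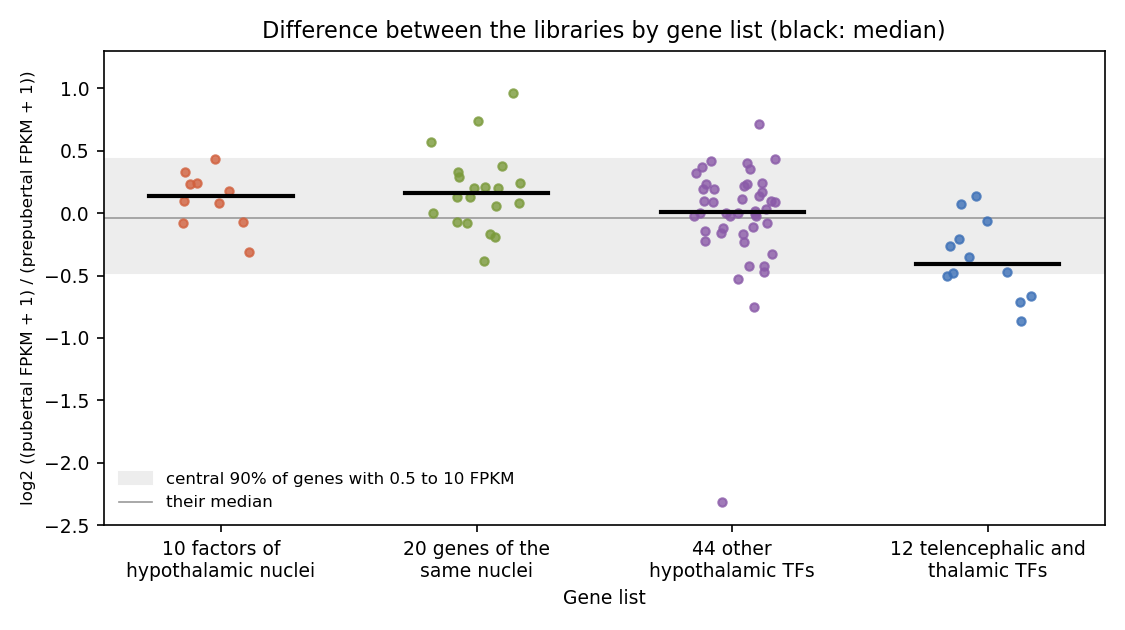
Log2 difference between the libraries on the FPKM + 1 scale (vertical axis, positive for higher at puberty) for each gene of 4 lists (horizontal axis, TF for transcription factor), with the median as a black line, the central 90% of genes with 0.5 to 10 FPKM shaded and their median as a grey line. The medians are 0.14, 0.17, 0.01 and -0.41 from left to right, and the lowest point is Dlx6.

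Markers of tissue that the dissection could hold differed between the libraries too. The 12 hypothalamic markers, peptide genes that define the tissue, were all above 0, as the labelled tissue would have them, and summed to 2701 FPKM before and 4106 FPKM at puberty, with 10 of 12 higher. All of them but Hcrt and Pmch are also among the genes of the same nuclei above, and Pmch alone was at 1675 and 2723 FPKM, which is most of the difference of the sums. Of the 7 thalamus markers, which share Gbx2 and Lef1 with the list above, 7 were lower, and their sum was 199 and 153 FPKM. Of the 11 telencephalon markers 7 were lower, and the sum was 80.9 and 67.2 FPKM. Slc17a7, the vesicular glutamate transporter of cortical neurons, was at 26.2 and 12.8 FPKM, which is nearly all of the difference of these sums. Of the 4 telencephalon markers that were higher, Rgs9 was at 8.13 and 10.4 FPKM (ratio 1.28, interval 1.10 to 1.48) and Ppp1r1b at 26.3 and 29.1 FPKM. The 11 pituitary markers, set here because Isl1, Six3, Six6 and Nr5a1 are also factors of the pituitary, summed to 32.5 and 45.2 FPKM with 7 of 11 higher. Among the defining pituitary genes, Prl was listed at 0 before and at 3.40 FPKM at puberty, Fshb at 0 and 0.396 FPKM, and Gh1 at 0.872 and 4.09 FPKM, and 1 of the 11 markers was at 0 in both libraries. Lhb was at 1.44 and 1.29 FPKM, Tbx19 at 0.653 and 0.592 FPKM and Pou1f1 at 0.155 and 0.0565 FPKM, so these 3 were lower at puberty. Cga, at 24.6 FPKM before puberty and also higher at puberty, made up most of the sum in both libraries. The 6 choroid plexus markers summed to 36.9 and 32.3 FPKM although 4 of 6 were higher, since Ttr, which makes up most of the sum, was at 29.0 and 23.0 FPKM. The 6 retina markers, set here for Six3, Six6 and Isl1, summed to 0.785 and 0.966 FPKM with 4 of 6 higher and Crx at 0 in both. The part of these differences in the values of the 10 factors was not tested.

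**Figure D5:**
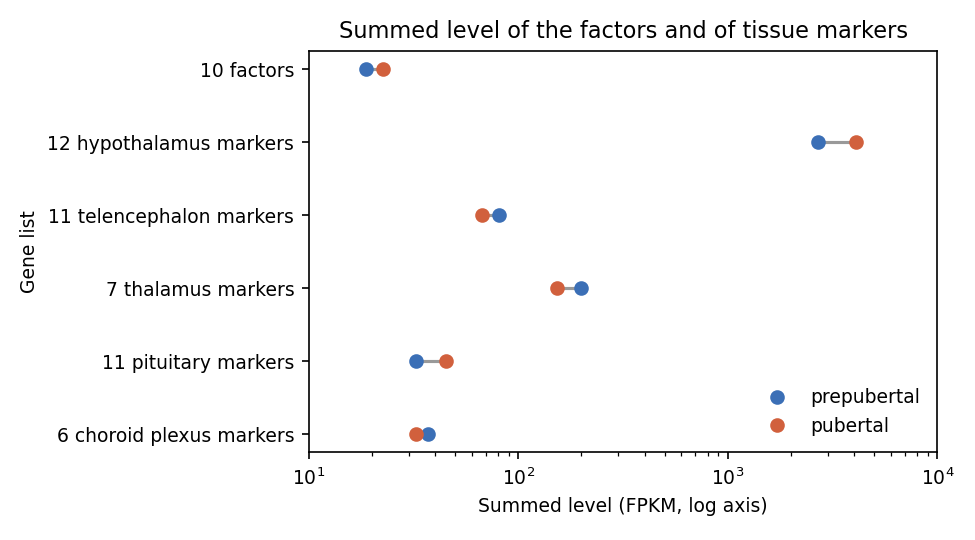
Summed level in FPKM (horizontal log axis) of the 10 factors and of 5 marker lists (vertical axis) before puberty (blue) and at puberty (orange), 1 value per stage. The sums of the factors, the hypothalamus markers and the pituitary markers are higher at puberty and those of the telencephalon, thalamus and choroid plexus markers lower. Slc17a7 carries the difference of the telencephalon sum and Ttr that of the choroid plexus sum, in which 4 of 6 genes are higher.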

How the data were processed

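Hypothalamic RNA of prepubertal and pubertal female rats was measured as 1 library per stage. How the 3 rats of a stage were combined is not given in the sources used here. The authors removed ribosomal RNA, prepared strand-specific libraries, mapped read pairs by TopHat, built transcript models by Cufflinks and Scripture, and obtained per-transcript FPKM and their comparison by Cuffdiff. The submitters' processing notes name Cufflinks and Cuffdiff 2.1.1 and build Rnor 5.0, while the methods name the annotation of a later build. Per the file headers, the deposited unit is FPKM, scaled for transcript length and library size. The authors' own comparison columns (ratios, p-values and q-values) were not used, nor were the lncRNA sequences.

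FPKM was summed per gene, and log2 ratios used a pseudocount of 1. Each of the 10 factors had 1 transcript, with the same FPKM in both tables that list it, and 0 lncRNAs carried a factor's name. The FPKM of 1 fragment was fitted as a step divided by transcript length less an offset, on transcripts of 600 to 6000 nt, and fragment numbers were rounded (13 of the 20 values of the factors lay within 0.1 of a whole number). Levels have exact Poisson intervals and ratios exact conditional binomial (Clopper-Pearson) intervals at 95%, computed for genes with 1 transcript of at least 600 nt and at least 10 fragments over both libraries. The code was tested on simulated data. There was no test between stages, since 1 library per stage leaves none. The factors and gene lists were chosen with earlier results of these data known. Named from each of the 3 comparison lists were the genes with the 3 largest log2 ratios upwards and downwards among those with at least 1 FPKM in a library, and the 3 with the highest mean FPKM. Single values of some genes that this rule or a list holds are not reported here. Alternatives were another pseudocount, filter, fold, transcript choice, scaling, table and length centring. Promoter sequences are RefSeq's. Intervals came from scipy 1.17.1, tables from pandas 2.3.3 and numpy 2.4.6, and plots from matplotlib 3.10.9, under Python 3.11.15.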

Additional observations from a re-analysis of the deposited data

How the results depend on the processing

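Alternatives were a pseudocount of 0.1, genes with at least 1 FPKM in a library, the transcript with the highest FPKM, pubertal values multiplied by 1.04 so that medians were equal, the FPKM of the comparison table, log2 ratios centred in 10 classes of transcript length, a threshold of 1.5-fold and, chosen after seeing the data, genes with at least 10 fragments over both libraries. The number of factors higher at puberty stayed 7 of 10, or 6 of 8 with at least 1 FPKM, and the number past 2-fold stayed 0, as it did past 1.5-fold on the scale of FPKM + 1, though the plain FPKM ratio of Otp, 0.658, is past 1.5-fold. The median of the 10 factors lay between 0.14 and 0.24, that of the telencephalic and thalamic factors between -0.63 and -0.35. The median of the 44 other hypothalamic factors changed sign, to -0.02 over the 25 with at least 1 FPKM. It was 0.00 when centred by length. No factor changed direction, and a pseudocount of 0.1 moved Lhx1 to 0.52, Nr5a1 to 0.36 and Otp to -0.55. Centring by length, since long transcripts were lower at puberty, moved Sim1 from 0.24 to 0.35. It lowered Isl1, of 1060 nt, from 0.43 to 0.36, since transcripts of 793 to 1146 nt had a median of 0.07. The counting intervals were not centred by length. No library could be left out, as each stage has 1. No paired analysis was possible because each stage has 1 library. Depth limits the factors with the fewest fragments most, Otp, Nr5a1 and Six3, whose ratio intervals are the widest on a log scale.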
